A study of Mus musculus with 12 samples.

Results

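SMAD genes and their feedback regulators were examined in 10T1/2 cells plated on type I collagen, on collagen carrying aortic carboxypeptidase-like protein (ACLP), or on the latter with an inhibitor of the TGFβ receptor kinase. The 9 genes were *Smad2*, *Smad3*, *Smad4*, *Smad6*, *Smad7*, *Ski*, *Skil*, *Smurf2* and *Pmepa1*. They were chosen by symbol from the 56748 genes of the count table, and each symbol matched 1 gene. All 9 were among the 16465 genes that passed the filter on low counts.

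10T1/2 (C3H10T1/2) is an established mouse mesenchymal line, described in the sample records as wild type. All cells were starved in 0.5% serum, held in suspension for 1 h and then kept for 18 h on 12 kPa hydrogels coated with collagen at 0.05 mg/ml. The sample records give low serum for the hour in suspension, where the study's methods give medium without serum. The control group (col1) had collagen alone, col1-ACLP had collagen polymerized with 30 nM recombinant ACLP, and col1-ACLP+SB had the same matrix with 5 µM SB431542 from the time of seeding. SB431542 blocks the kinase of TGFβR1 (ALK5) and of its close relatives. Bulk RNA was sequenced from 4 biological replicates per group, 12 libraries in all. SB431542 was not combined with collagen alone, so an effect of the inhibitor by itself cannot be told apart from its effect on the response to ACLP.

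In TGFβ signaling, an activated receptor complex phosphorylates the receptor-regulated SMADs, SMAD2 and SMAD3, which join SMAD4 and act on genes in the nucleus. The pathway is held in check at several points: the inhibitory SMADs, SMAD6 and SMAD7, act at the receptors, SKI and SnoN (the product of *Skil*) repress transcription at SMAD-bound genes, the ubiquitin ligase SMURF2 marks receptors and SMADs for turnover, and PMEPA1 keeps SMAD2 and SMAD3 from the receptor. Several of these inhibitors are themselves transcribed in response to TGFβ and thus form negative feedback loops. In mesenchymal cells the pathway is best known for driving matrix production and contractile gene expression.

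Libraries held 29246154 to 52201922 counts, and a member had between 285 (*Smad7*) and 12805 (*Ski*) counts in a library. Levels are given as CPM, counts divided by the size of the library after TMM scaling, which compares 1 gene between libraries. In a principal component analysis, col1 replicate 2 stood apart from the other col1 libraries on PC1 (-86.7, against -11.1 to -8.97), and the counts of members are therefore also given without it. Mesenchymal markers were detected in every library (*Vim* from 4708 to 5373 CPM), and *Twist2* was the lowest of them, at 0.27 to 1.41 CPM. Among the defining markers of endothelial, haematopoietic, epithelial and adipocyte cells, *Kdr*, *Ptprc*, *Epcam* and *Adipoq* did not exceed 0.268 CPM in any library, and the highest were *Tek*, *Cd68* and *Cdh1*, at up to 9.56, 10.0 and 3.84 CPM. In bulk RNA, a smaller share of cells that express a gene and a lower level in each cell cannot be told apart.

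With ACLP, 5 of the 6 genes that act as brakes on the pathway rose while *Smad3* fell. *Pmepa1* was 3.65-fold higher on col1-ACLP than on col1, *Skil* 2.02-fold and *Smad7* 1.51-fold, and *Smad6*, *Smad2* and *Ski* were higher by smaller folds of 1.285, 1.17 and 1.14. *Smad3* fell to 0.783 of its level on col1. *Smad4* and *Smurf2* did not pass the test. In numbers, 6 members were higher and 1 lower at an adjusted p under 0.05, where 17.9% of all tested genes were called (9.52% higher and 8.41% lower). Under the further requirement of a log2 fold change beyond 0.58, 3 members were higher (*Pmepa1*, *Skil* and *Smad7*), against 2.61% of all tested genes, and none was lower, against 2.36%. The 4 col1-ACLP libraries were all above the 4 col1 libraries for 5 members and all below them for 1, where 21.2% of all tested genes had no overlap (10.9% higher and 10.3% lower). The median log2 fold change was 0.22 over the members and -0.0099 over all tested genes. The test throughout was the quasi-likelihood test of edgeR, adjusted over the 16465 genes by the Benjamini-Hochberg method. Without col1 replicate 2, 7 members were called, and without col1 replicate 3 the count was 6. Without col1-ACLP replicate 4 it was 5, and the brakes that rose were then 3 of 6, since *Smad6* and *Ski* were no longer called (edgeR adjusted p = 0.0599 and 0.0536). Under scaling to library size alone *Ski* was not called and *Smurf2* was called lower (edgeR adjusted p = 0.0510 and 0.0497).

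**Figure D1:**
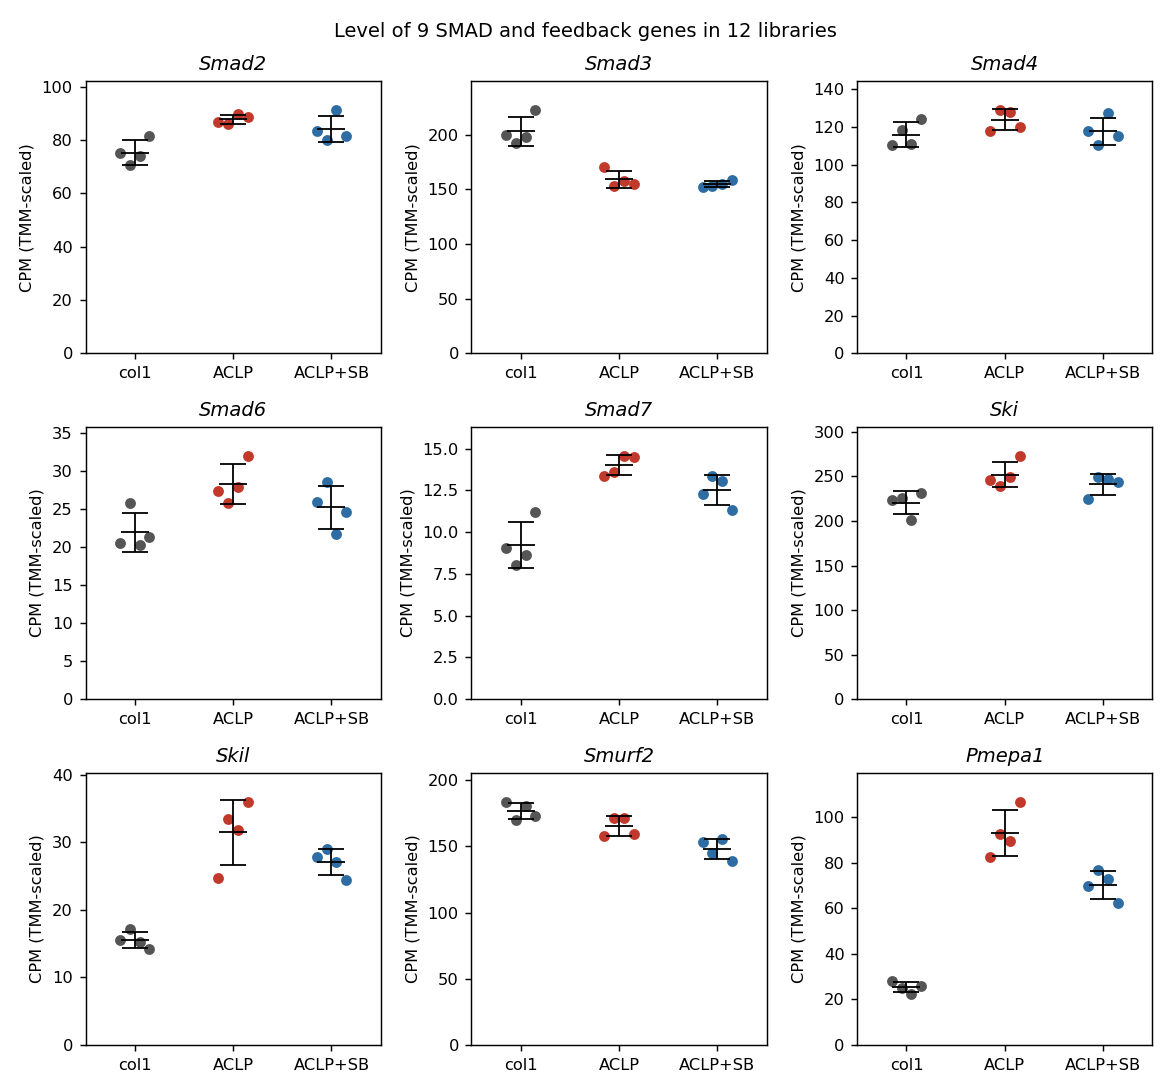
Level of each member in the 12 libraries, in CPM with TMM scaling on axes that start at 0. Points are libraries, and black bars give the mean and SD of 4. *Pmepa1*, *Skil* and *Smad7* are lowest in all 4 col1 libraries, and *Smad3* is highest there.

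Of the receptor-regulated SMADs, *Smad2* (ENSMUSG00000024563, chromosome 18 from 76374651 to 76444034 of GRCm39, plus strand) rose modestly with ACLP. Its level was 75.0, 70.6, 73.9 and 81.7 CPM in the 4 col1 libraries and 86.8, 86.1, 89.6 and 88.6 CPM in the 4 on col1-ACLP. With SB431542 it was 83.4, 80.2, 91.2 and 81.4 CPM. The col1 and col1-ACLP libraries did not overlap, whereas 2 of the 4 inhibitor libraries lay below col1 replicate 4. The log2 fold change with ACLP was 0.22 (standard error 0.0585, edgeR adjusted p = 0.00820), and with ACLP and SB431542 it was 0.16 (edgeR adjusted p = 0.0969), which did not pass the test.

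*Smad3* (ENSMUSG00000032402, chromosome 9 from 63554049 to 63665276, minus strand), which binds DNA directly, moved the other way. It stood at 199.4, 192.7, 197.7 and 222.3 CPM on col1, at 170.3, 153.2, 157.3 and 155.2 CPM on col1-ACLP, and at 152.2, 153.3, 154.4 and 158.7 CPM in col1-ACLP+SB. Every library with ACLP, inhibitor or not, was below every col1 library, and the groups with and without the inhibitor overlapped. On the log2 scale *Smad3* fell by 0.35 with ACLP (standard error 0.0520, edgeR adjusted p = 1.33e-05) and by 0.39 with ACLP and SB431542. The level in col1-ACLP+SB was 0.973 of that in col1-ACLP, with a 95% confidence interval of 0.903 to 1.05, and this difference did not pass the test (edgeR adjusted p = 0.845).

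Since *Smad2* and *Smad3* changed in opposite directions, their ratio within each library set the col1 libraries apart from those with ACLP. Counted per length as FPKM, the ratio of *Smad3* to *Smad2* was 4.21, 4.33, 4.24 and 4.31 on col1, 3.11, 2.82, 2.78 and 2.77 on col1-ACLP, and 2.89, 3.03, 2.68 and 3.09 in col1-ACLP+SB. The means were 4.27 ± 0.0555, 2.87 ± 0.159 and 2.92 ± 0.181 (SD, n = 4 each). Both groups with ACLP lay below the col1 range and overlapped each other. A ratio of this kind does not depend on library size or on the scaling method.

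*Smad4* (ENSMUSG00000024515, chromosome 18 from 73772080 to 73836851, minus strand), the partner shared by all receptor-regulated SMADs, had overlapping levels in all groups. The ranges were 110.4 to 124.3 CPM on col1, 117.8 to 128.8 CPM on col1-ACLP and 110.5 to 127.5 CPM in col1-ACLP+SB. Its log2 fold change with ACLP was 0.09, with a 95% confidence interval of -0.02 to 0.21 (edgeR adjusted p = 0.305), and with ACLP and SB431542 it was 0.02 (edgeR adjusted p = 0.896). A pseudogene, *Gm50126*, lies within *Smad4* on the other strand and had at most 7 counts in any library.

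The inhibitory SMADs were both higher with ACLP. *Smad7* (ENSMUSG00000025880, chromosome 18 from 75500600 to 75529006, plus strand), a TGFβ target gene that blocks the type I receptor, was at 9.05, 8.02, 8.64 and 11.2 CPM on col1. On col1-ACLP it was at 13.4, 13.6, 14.6 and 14.5 CPM, and with SB431542 at 12.3, 13.3, 13.0 and 11.3 CPM. None of the 8 libraries with ACLP was as low as any col1 library, though replicate 4 of col1-ACLP+SB exceeded replicate 4 of col1 by little. The log2 fold change was 0.60 with ACLP (standard error 0.121, edgeR adjusted p = 7.01e-04) and 0.44 with ACLP and SB431542 (edgeR adjusted p = 0.0211). The latter did not pass the test without col1 replicate 2 (edgeR adjusted p = 0.0636), nor without any 1 of 3 other libraries, col1 replicate 3 and col1-ACLP+SB replicates 2 and 3 (edgeR adjusted p from 0.055 to 0.0631), nor in a fit of these groups alone (edgeR adjusted p = 0.055).

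*Smad6* (ENSMUSG00000036867, chromosome 9 from 63860358 to 63929341, minus strand) is the inhibitory SMAD better known for acting on the BMP branch. Its levels were 20.4, 25.7, 20.3 and 21.3 CPM in the col1 libraries, 27.3, 25.7, 27.9 and 31.9 CPM with ACLP, and 25.9, 28.5, 21.7 and 24.6 CPM in col1-ACLP+SB. The col1 and col1-ACLP libraries met at their replicates 2, and the inhibitor group reached down among the col1 libraries. With ACLP the log2 fold change was 0.36 (standard error 0.100, edgeR adjusted p = 0.0118), a call that was lost without col1-ACLP replicate 4 (edgeR adjusted p = 0.0599). With ACLP and SB431542 it was 0.20 (edgeR adjusted p = 0.288).

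*Smad3* and *Smad6* lie near each other in the genome, on the same strand of chromosome 9 and 195.1 kb apart, and they changed in opposite directions with ACLP. Stretches from the start regions of this pair are shown because 1 of them holds letters to which SMAD proteins are known to bind, and the stretches are not matched in position. The RefSeq promoter table used here (GRCm38.p6, another build than that of the counts) held 4 of the 9 members, *Ski*, *Smad3*, *Smad6* and *Smurf2*, each with 250 bases before and 50 after the start. On the *Smad6* strand, the 30 bases at chr9:64022045-64022074 contain the palindromic SMAD element, shown in capitals, whose leading base is at -4 from the RefSeq start. They span that start, and the start of the *Smad6* transcript that begins furthest upstream in GENCODE is not in the window. For *Smad3*, the 50 bases at chr9:63758195-63758244 that precede every annotated transcript start contain none of the motifs searched for, and no letters are in capitals.
Smad6: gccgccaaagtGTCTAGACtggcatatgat
Smad3: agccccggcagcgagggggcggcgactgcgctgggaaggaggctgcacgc

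Promoter windows of these 4 members were searched on both strands for the palindrome GTCTAGAC and the SMAD box CAGAC. The GC-rich SMAD site GGCGC and the AP-1 site TGANTCA were searched for in the same way. The palindrome was found in the *Smad6* window alone among the 4, and in 0.213% of 32851 promoters of the same length. The members on chromosome 18, *Smad2*, *Smad4* and *Smad7*, were not searched, so the palindrome cannot be called particular to *Smad6* among the members. CAGAC was found at 2 places in the *Smurf2* window and at none in the other three, against 49.6% of all promoters. With overlapping matches on the 2 strands taken as 1 place, GGCGC occurred at 6 places in the *Ski* window, 4 in that of *Smurf2*, 2 in that of *Smad6* and none in that of *Smad3*, and 36.9% of all promoters held it. The GC content of these windows was 85.3%, 80.3%, 66.3% and 67.7%, against a median of 52.7% over all promoters, and its part in the matches was not tested. TGANTCA occurred in none of the 4 windows and in 7.81% of all promoters. Such matches describe the letters of these windows only.

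The corepressors *Ski* and *Skil* are paralogs that were expressed at very different levels and responded to a different extent. *Ski* (ENSMUSG00000029050, chromosome 4 from 155238532 to 155307049, minus strand) was at 223.8, 225.4, 201.5 and 231.5 CPM on col1. It was at 246.3, 239.7, 249.7 and 272.9 CPM on col1-ACLP and at 224.3, 249.2, 246.9 and 243.6 CPM in col1-ACLP+SB. All col1-ACLP libraries exceeded all col1 libraries, while replicate 1 of the inhibitor group lay within the col1 range. The log2 fold change with ACLP was 0.19 (standard error 0.0533, edgeR adjusted p = 0.0115), and the call was lost without col1 replicate 3 (edgeR adjusted p = 0.0619), without col1-ACLP replicate 4 (edgeR adjusted p = 0.0536) or with scaling to library size alone (edgeR adjusted p = 0.0510). With ACLP and SB431542 it was 0.13 (edgeR adjusted p = 0.162).

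*Skil* (ENSMUSG00000027660, chromosome 3 from 31149207 to 31176726, plus strand) encodes SnoN, which is degraded on TGFβ stimulation and then made anew as a target gene. On col1 it had 15.5, 17.1, 15.3 and 14.2 CPM, on col1-ACLP 24.7, 33.4, 31.8 and 36.0 CPM, and with SB431542 27.8, 28.9, 27.1 and 24.4 CPM. Both groups with ACLP were clear of the col1 range and overlapped each other, because col1-ACLP replicate 1 was lower than its 3 fellow replicates. The log2 fold change was 1.02 with ACLP (95% confidence interval 0.80 to 1.23, edgeR adjusted p = 4.22e-08) and 0.80 with ACLP and SB431542 (0.59 to 1.01, edgeR adjusted p = 3.94e-06). Between the groups with and without SB431542 it was -0.22, with an interval of -0.43 to -0.01 and an unadjusted p of 0.0433 in edgeR's test, and it did not pass after adjustment (edgeR adjusted p = 0.364). The FPKM ratio of *Skil* to *Ski* was 0.0405 ± 0.00393 on col1, 0.0715 ± 0.00974 on col1-ACLP and 0.0646 ± 0.00582 in col1-ACLP+SB (SD, n = 4 each), and here too both groups with ACLP were above the col1 range.

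*Smurf2* (ENSMUSG00000018363, chromosome 11 from 106710892 to 106811541, minus strand) passed the test against col1 with ACLP and SB431542 and not with ACLP alone. Its levels were 183.7, 169.9, 180.3 and 173.0 CPM for col1, 157.8, 171.6, 171.6 and 159.3 CPM for col1-ACLP, and 153.3, 145.0, 155.7 and 139.0 CPM in col1-ACLP+SB. The col1 and col1-ACLP libraries overlapped, and all 4 libraries with SB431542 were below all other 8. The log2 fold change was -0.10 with ACLP (95% confidence interval -0.20 to 0.01, edgeR adjusted p = 0.218) and -0.25 with ACLP and SB431542 (-0.36 to -0.15, edgeR adjusted p = 0.00136). Between col1-ACLP+SB and col1-ACLP it was -0.15, which did not pass the test (edgeR adjusted p = 0.149) but passed it narrowly in DESeq2 (adjusted p = 0.0487).

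*Pmepa1* (ENSMUSG00000038400, chromosome 2 from 173066251 to 173118326, minus strand), also a TGFβ target gene, encodes a membrane protein that holds SMAD2 and SMAD3 away from the receptor, and it changed most of the 9. Its level was 28.3, 24.9, 22.5 and 26.0 CPM on col1. On col1-ACLP it was 82.5, 92.6, 89.7 and 106.7 CPM, and in col1-ACLP+SB it was 69.8, 76.6, 72.7 and 62.1 CPM. The groups formed 3 separate ranges, with the inhibitor group between the others. The log2 fold change with ACLP was 1.87 (standard error 0.0838, edgeR adjusted p = 1.61e-14), and *Pmepa1* ranked 12 by p-value among all tested genes. With ACLP and SB431542 it was 1.47 (standard error 0.0833, edgeR adjusted p = 4.26e-12), with rank 10.

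**Figure D2:**
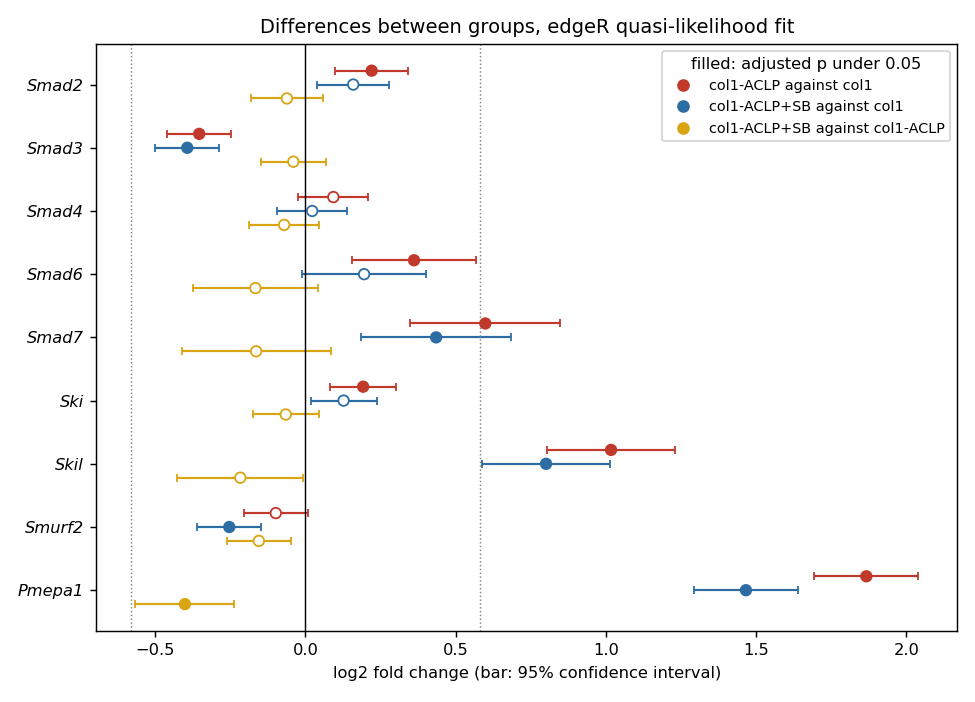
Log2 fold change of each member in 3 comparisons, with 95% confidence intervals from edgeR's fit. Filled points have an adjusted p under 0.05, and dotted lines mark a log2 fold change of 0.58 in either direction. In the comparison with and without SB431542 all 9 estimates lie below 0 and *Pmepa1* alone is filled.

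The members that rose most in col1-ACLP were also higher than on col1 in col1-ACLP+SB. *Pmepa1* was 2.76-fold, *Skil* 1.74-fold and *Smad7* 1.35-fold above col1 in col1-ACLP+SB, and *Smad3* and *Smurf2* were at 0.762 and 0.839 of their col1 levels. In numbers, 3 members were higher and 2 lower than on col1, and 4 were not called, where 9.13% of all tested genes were called (4.6% higher and 4.54% lower). *Pmepa1* and *Skil* were also past the log2 fold change of 0.58, as were 1.27% of all tested genes in that direction. The libraries of 3 members were all above and those of 2 members all below the col1 range, against 6.69% and 6.33% of tested genes. Without col1 replicate 2, 4 members were called, and the call for *Smad7* was lost in 5 of the 20 alternatives. This comparison and the one of col1-ACLP with col1 share their control libraries.

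The direct comparison of col1-ACLP+SB with col1-ACLP, which asks how inhibition of the receptor kinase alters gene expression on the ACLP matrix, gave a call for *Pmepa1* alone. Its log2 fold change was -0.40 (standard error 0.0798, 95% confidence interval -0.57 to -0.24, edgeR adjusted p = 0.00841), a level of 0.758 relative to col1-ACLP. Of all tested genes 1.48% were called in this comparison, 0.571% higher and 0.905% lower. No member was past a log2 fold change of 0.58, against 0.085% of tested genes in the higher and 0.0425% in the lower direction. All 9 estimates were below 0, with a median of -0.15 against 0.00485 over all tested genes. The 4 libraries with SB431542 were all below the 4 without it for *Pmepa1*, *Smad7* and *Smurf2*, and for no member all above them, where 8.17% of tested genes had no overlap (3.64% higher and 4.53% lower). *Smad7* and *Smurf2* did not pass edgeR's test, at log2 fold changes of -0.16 (95% confidence interval -0.41 to 0.08, edgeR adjusted p = 0.656) and -0.15. The call for *Pmepa1* was lost without col1-ACLP replicate 4, the library with the highest level (log2 fold change -0.33, edgeR adjusted p = 0.0547).

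Levels of different genes can be compared only per length, and FPKM from the gene lengths of the table gave the order on col1. *Ski* stood at 39.7 FPKM, *Smad3* at 36.6 FPKM, *Smad4* at 31.2 FPKM and *Smurf2* at 28.7 FPKM, followed by *Smad2* at 8.57, *Smad6* at 6.85, *Pmepa1* at 5.18, *Smad7* at 2.04 and *Skil* at 1.60 FPKM (means of 4 libraries). The libraries of *Ski* and *Smad3* overlapped, as did those of *Smad4* and *Smurf2*, and all other neighbours in the order were separate. The 3 members past both thresholds with ACLP were thus the 3 of lowest level on col1.

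With ACLP the order changed at 3 places. *Pmepa1* moved from rank 7 to rank 5, with 18.9 ± 2.07 FPKM, and stood above *Smad2* and *Smad6* with no overlap, where on col1 it had stood below both. *Smad3* dropped to rank 3, at 28.7 ± 1.39 FPKM, below *Smad4* at 33.3 ± 1.501 FPKM, and its libraries overlapped with those of *Smurf2*. *Skil* (3.25 ± 0.498 FPKM) and *Smad7* (3.10 ± 0.136 FPKM) overlapped at the foot of the order (SD, n = 4 each). In col1-ACLP+SB the 9 genes were in the order of col1-ACLP, with *Pmepa1* at 14.3 ± 1.25 FPKM.

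**Figure D3:**
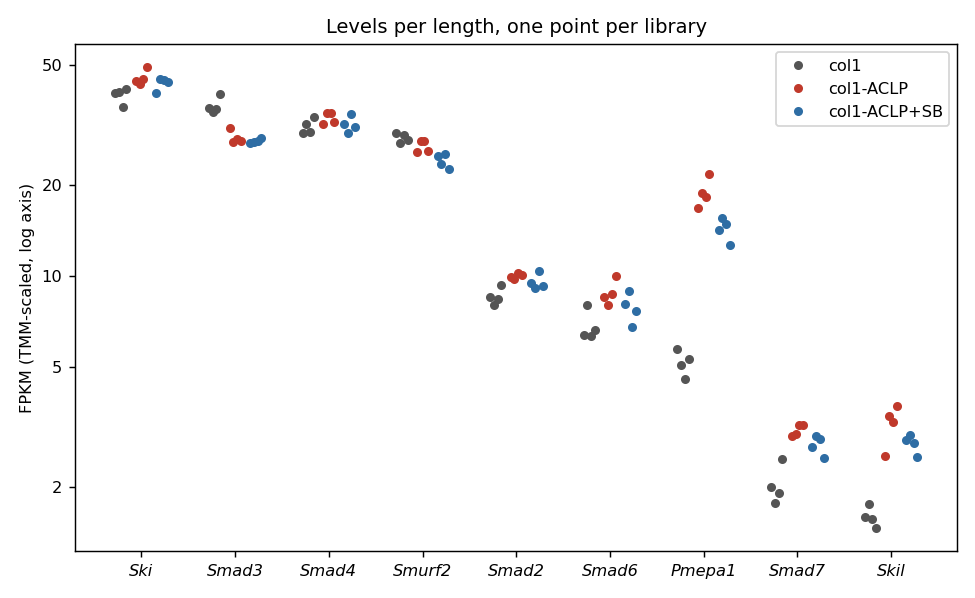
Level per length of the members, in FPKM on a log axis, with 1 point per library and the genes in the order of their col1 means. *Pmepa1* passes *Smad2* and *Smad6* in both groups with ACLP, and *Smad3* falls below *Smad4*.

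Set against *Smad3*, *Pmepa1* and *Smad7* were higher in every library with ACLP than in any on col1. The FPKM ratio of *Pmepa1* to *Smad3* was 0.142 ± 0.0144 on col1, 0.662 ± 0.0950 on col1-ACLP and 0.513 ± 0.0518 in col1-ACLP+SB (SD, n = 4 each). That of *Smad7* to *Smad3* was 0.0555 ± 0.00464, 0.108 ± 0.00840 and 0.0991 ± 0.00838. In both ratios the 2 groups with ACLP overlapped each other and not col1. These are ratios of transcripts and do not give the ratio of the proteins.

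**Figure D4:**
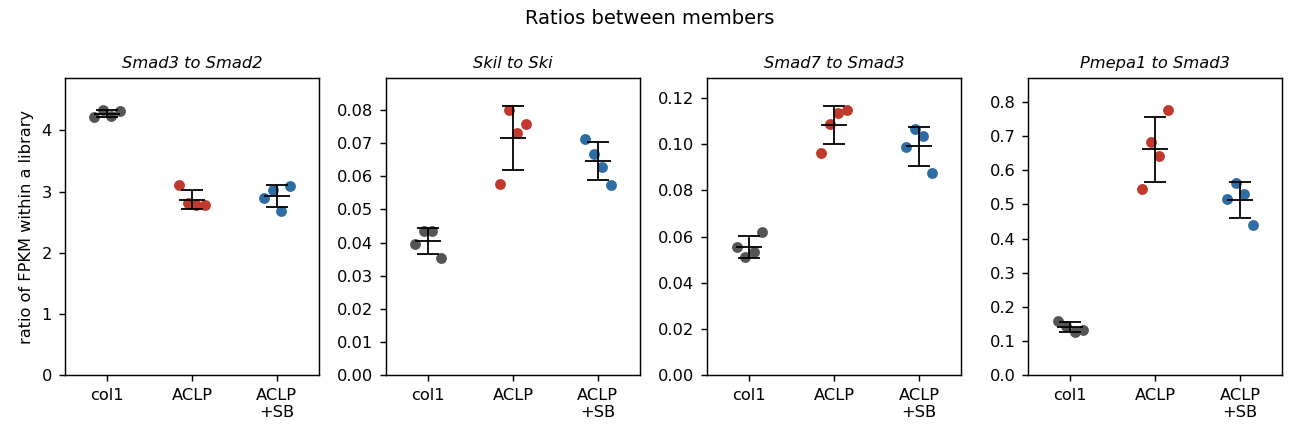
Ratio of FPKM between members within each library, on axes that start at 0. Points are libraries, and black bars give the mean and SD of 4. In all 4 ratios the col1 libraries are separate from the 8 libraries with ACLP.

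The other genes of the pathway were counted in 6 lists by role, with 71 genes of which 66 were tested. With ACLP, 16 were higher and 10 lower, with 17.9% of all tested genes called, and without col1 replicate 2 the number lower was 6. With ACLP and SB431542, 10 were higher and 6 lower, against 9.13%, and without col1 replicate 4 the number lower was 3. Between col1-ACLP+SB and col1-ACLP, none was higher and 2 were lower (*Acta2* and *Col1a2*), against 1.48%. That number called changed with no filter on low counts and with some libraries left out, as given in the closing section. The receptor-regulated SMADs of the BMP branch, *Smad1*, *Smad5* and *Smad9*, were not called in any of these comparisons.

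Among 9 receptors tested, 1 was higher and 2 were lower with ACLP, where 9.52% of all tested genes were higher and 8.41% lower. *Tgfbr3* (betaglycan), a coreceptor that presents TGFβ, fell by 0.60 on the log2 scale (edgeR adjusted p = 5.29e-07), and by 0.45 with SB431542. *Acvr1*, a type I receptor of the BMP branch, rose by 0.31 (edgeR adjusted p = 0.00228). With ACLP and SB431542, *Tgfbr3* was the only receptor called against col1, where 4.6% of all tested genes were higher and 4.54% lower.

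Of 13 ubiquitin ligases and deubiquitinases that act on SMADs or receptors, 2 were higher and 2 lower with ACLP, and 1 was higher and 2 lower with ACLP and SB431542. The shares over all tested genes were 9.52% higher and 8.41% lower in the former comparison and 4.6% and 4.54% in the latter. *Wwp2*, a ligase related to SMURF2, went from 382 ± 30.6 CPM on col1 to 701 ± 28.99 CPM on col1-ACLP and 644 ± 40.4 CPM with SB431542, log2 fold changes of 0.88 and 0.75 (edgeR adjusted p = 5.59e-12 and 2.11e-10). This is in contrast to *Smurf2*, for which no estimate was above 0. *Nedd4l*, another ligase of the family, had log2 fold changes of -0.28 and -0.34, both past the test. The deubiquitinase gene *Usp11* fell by 0.43 with ACLP (edgeR adjusted p = 0.00996).

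Of 19 SMAD partners and nuclear cofactors tested, 5 were higher and 2 lower with ACLP, and 3 higher and 3 lower with ACLP and SB431542, against 9.52% and 8.41% of all tested genes with ACLP and 4.6% and 4.54% with both. *Ldlrad4*, a relative of *Pmepa1* with the same kind of action on SMAD2 and SMAD3, rose by 0.91 (edgeR adjusted p = 1.38e-07) and by 0.70 with SB431542, from 23.7 ± 3.03 CPM on col1. The repressors *Zeb1* and *Zeb2* fell by 0.34 each with ACLP and by 0.19 and 0.36 with SB431542, all past the test.

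Of 15 TGFβ-SMAD target genes tested, 8 were higher and 2 lower with ACLP, and 6 were higher and none lower with ACLP and SB431542. Of all tested genes, 9.52% were higher and 8.41% lower with ACLP, and 4.6% and 4.54% with ACLP and SB431542. The median log2 fold changes of the list were 0.30 and 0.44, against -0.0099 and 0.0046 over all tested genes. The genes that were lower with ACLP, *Junb* and *Cdkn1a*, which encode an AP-1 subunit and a cell cycle inhibitor, fell by 0.34 and 0.13 on the log2 scale, and were chosen for naming after their values were seen. *Ccn2*, which encodes a matricellular protein, rose by 1.47 and by 1.15 with SB431542, and *Acta2*, which encodes smooth muscle actin, by 1.18 and 0.94. *Col1a1* rose by 0.82 and 0.63, *Col1a2* by 0.65 and 0.44, and the transcription factor gene *Bhlhe40* by 0.73 and 0.74. *Itga11* and *Hey1* were below 4 CPM in every library, and rose by 1.48 and 1.79 with ACLP (edgeR adjusted p = 0.00877 and 0.0438). Their values with SB431542, 1.02 and 1.84, did not pass the test. No target gene of the BMP branch was called higher in any comparison. Between col1-ACLP+SB and col1-ACLP none was called, with a list median log2 fold change of 0.14 against 0.00485 over all tested genes. With ACLP, 2 of 7 tested were called lower, *Id2* by 0.46 and *Atoh8* by 0.33 on the log2 scale.

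**Figure D5:**
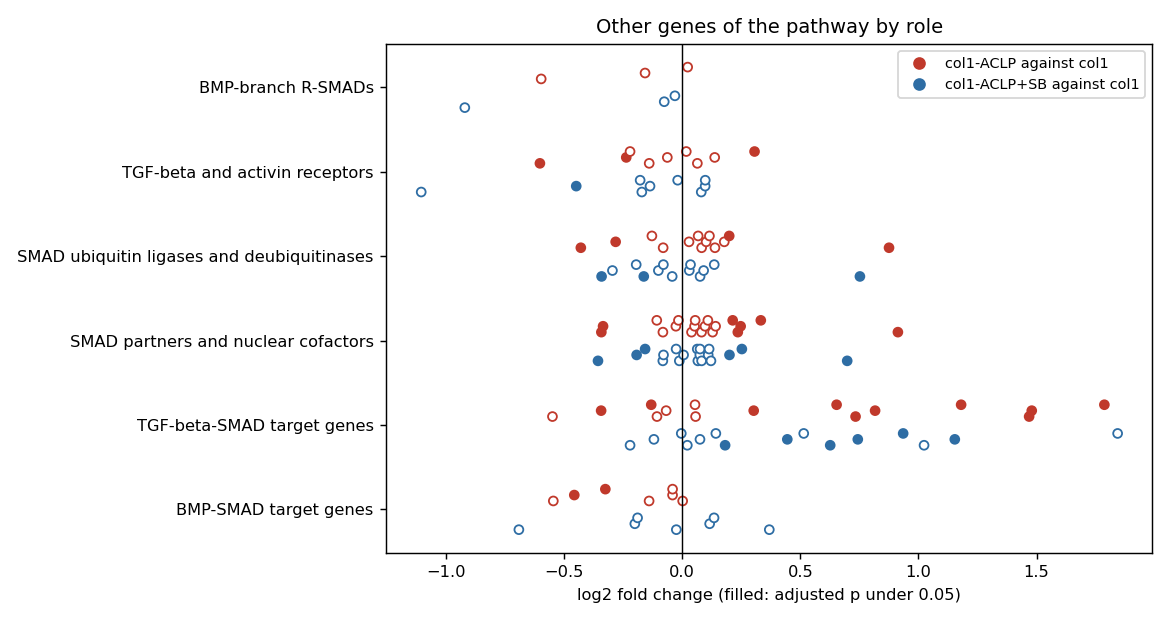
Log2 fold changes of 66 other genes of the pathway in 6 lists by role, for both comparisons with col1. Filled points have an adjusted p under 0.05. With ACLP, 9 of these genes are higher past both thresholds, of which 7 are TGFβ-SMAD target genes, and *Wwp2* and *Ldlrad4* are the others.

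For each member called in any comparison, the 3 genes with the most similar pattern over the 12 libraries were found among 10435 genes of at least 5 CPM, by the root-mean-square difference of centred log2 CPM. Those nearest to *Pmepa1* were *Rflnb*, *Col2a1* and *Sertad4*, at differences of 0.0975, 0.108 and 0.125, where the SD of *Pmepa1* itself was 0.811. *Skil* was followed most closely by *Map2*, *Cyp26b1* and *Wwp2* (0.104 to 0.122, SD 0.455), and *Smad7* by *Plk2*, *Itgb3* and *Rin1* (0.0939 to 0.0965, SD 0.284). For *Smad3* they were *Scara5*, *Frmd6* and *Mtap* (0.0516 to 0.0548, SD 0.185). The ligase gene *Wwp2* thus appears both in the list of SMAD ligases and beside *Skil*.

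The nearest genes of the other 4 members called were found in the same way. *Smad6* was nearest to *Vps53*, *Ttc13* and *Kctd15* (0.0868 to 0.0887, SD 0.199), *Smad2* to *Hdlbp*, *Ccdc47* and *Gxylt2* (0.0402 to 0.0431, SD 0.112), *Ski* to *Usp5*, *Nf2* and *Copg1* (0.0300 to 0.0471, SD 0.106), and *Smurf2* to *Secisbp2l*, *Sh3kbp1* and *Pgm5* (0.0639 to 0.0661, SD 0.119). No member was among the 3 nearest genes of another.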

How the data were processed

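The authors sequenced poly(A) RNA of 12 libraries as 150-bp paired-end reads and mapped them with HISAT2 (v2.1.0). The paper's methods name GRCm39 and the submitters' processing notes mm10, and the coordinates deposited in the table match GRCm39. What the authors deposited is a table of raw, unnormalized read counts by gene. The counting tool and its strand setting are not given in the sources used here. From these counts, edgeR 4.0.16 (R 4.3.3) was run with filterByExpr, TMM factors (0.966 to 1.02), glmQLFit and glmQLFTest on all 12 libraries with 1 mean per group, and Benjamini-Hochberg adjustment over 16465 genes. An adjusted p of 0.05 and a log2 fold change of 0.58 follow the study's methods, which used DESeq2 (v1.28.1). CPM and FPKM used TMM-scaled library sizes and FPKM the table's gene lengths. The procedure was tested on simulated data.

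The members and lists were chosen with earlier results of these data known. All 9 members were named, and from each list the genes past both thresholds or with the 2 largest changes among those called in a comparison. Replicates differed beyond sampling noise (chi-square per degree of freedom 7.49 to 20.1). Libraries with the same replicate number did not deviate together (correlation -0.037 to 0.036), so the numbers were not taken to pair them. Alternatives were other size factors, filters, fits and tools (DESeq2 1.42.0, limma-voom 3.58.1) and each library left out in turn. Standard errors, intervals and p-values from edgeR include the spread between replicate libraries as well as counting error. The result for 1 gene is not reported here.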

Additional observations from a re-analysis of the deposited data

How the results depend on the processing

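Each of the 27 differences of a member between groups was computed under 20 alternatives. No difference that was called in the main fit or in the alternative changed sign. The estimate for *Smad4* with ACLP and SB431542, never called, ran from -0.018 to 0.059 over the alternatives. Of the 27, 20 stayed on their side of the threshold in every alternative, and 7 crossed it in at least 1. With ACLP these were *Ski*, *Smad6* and *Smurf2*, and with ACLP and SB431542 *Smad2* and *Smad7*. Between col1-ACLP+SB and col1-ACLP they were *Smurf2* and *Pmepa1*. *Smurf2* was called lower with ACLP under scaling to library size alone (edgeR adjusted p = 0.0497), which moved the median log2 fold change of all genes to -0.06, and *Smad2* was called with ACLP and SB431542 without col1 replicate 4 (edgeR adjusted p = 0.0432). With libraries left out in turn, the members called ran from 5 to 7 with ACLP, from 4 to 6 with ACLP and SB431542 and from 0 to 1 between col1-ACLP+SB and col1-ACLP, where the 0 came without col1-ACLP replicate 4. DESeq2 called 2 members in the last comparison. Of the genes in lists, 2 were called there, 6 with no filter on low counts, and 1 to 4 with a library left out, with 4 without col1-ACLP replicate 2 and 1 without col1-ACLP replicate 4 or col1-ACLP+SB replicate 4. The cause was not tested. With ACLP, the list genes called ran from 21 to 26 with a library left out, the 21 being without col1 replicate 2, and the number lower was then 6 in place of 10. With ACLP and SB431542 they ran from 13 to 17.

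With the replicate number as a block, 7, 5 and 1 members were called in the 3 comparisons, as without it, and 24, 15 and 2 genes of the lists. The list genes *Hey1* and *Itga11* had low levels and standard errors of 0.613 and 0.395 on the log2 scale with ACLP.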
